A study of Mus musculus with 6 samples.

Results

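The genes described here are the fibroblast growth factors Fgf1, Fgf2, Fgf9, Fgf10, Fgf12, Fgf13 and Fgf14 and the receptors Fgfr1, Fgfr2 and Fgfr3, as read in cortical cells of mice that drank fluoxetine or its vehicle. They were found as every probe set (the group of short probes that reads a transcript on an Affymetrix array) that the platform annotation gives to 1 of these symbols alone. This gave 24 probe sets for the 10 genes, of 45037 in all (18193 genes have a probe set of their own), and 0 further probe sets shared a listed symbol with another gene. All 24 carried the same symbol in a RefSeq gene table. Of them, 13 probe sets of 8 genes passed a level filter and were tested, and 11 lay below it.

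The fluoxetine group comprised 3 arrays from mice that drank fluoxetine, a serotonin reuptake inhibitor, at 0.167 mg/ml in 1% saccharine. The vehicle group comprised 3 arrays from mice that drank 1% saccharine alone, and both ran for 15 to 18 days. All mice carried the S100a10 bacTRAP transgene (line ES691, brought from FVB onto C57BL/6 by 3 to 5 generations of backcrossing), in which cells that use the S100a10 control region make a tagged ribosomal protein. RNA held by those ribosomes was pulled out of whole cortex (translating ribosome affinity purification, TRAP), and 15 ng of it was amplified in 2 cycles. The submitters state that the line also marks some non-neuronal cells and advise keeping to a list from their paper, and no such restriction was made here. The sex and age of the mice and whether a sample pools animals are not given in the sources used here. The p-values therefore measure the spread between these samples, and the number of arrays limits every precision given below.

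Secreted fibroblast growth factors bind receptor tyrosine kinases on the cell surface together with heparan sulphate chains, and the receptors then signal through adaptor proteins and the Ras and MAP kinase cascade. Fgf12, Fgf13 and Fgf14 are relatives of these ligands, known as FGF homologous factors, that stay inside the cell and bind the tails of voltage-gated sodium channels in neurons. In the cortex Fgfr3 is known as a gene of astrocytes, and Fgf9 as a ligand made largely by neurons.

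The question was whether weeks of fluoxetine alter the ribosome-bound RNA of these genes in the cells the line marks. No FGF or receptor probe set passed the test. In limma's moderated test with Benjamini-Hochberg adjustment over all 22326 tested probe sets, 0 of the 13 passed an adjusted p of 0.05 (adjusted p = 0.999 for each), against 0% of all tested probe sets. At an unadjusted p under 0.05 the count was also 0 of 13, where 2.52% of all tested probe sets lay under that level. Of the 13, 9 were lower on average with fluoxetine (69.2%), a share near the 66.3% of all tested probe sets, and the count was 8 and 7 of 13 when the arrays were rescaled by quantiles or to a common median. Their median difference, fluoxetine minus vehicle, was −0.10 in log2, beside −0.06 for all tested probe sets. The groups did not overlap for 2 of the 13, against 8.05% of all tested probe sets, and both, in Fgf9 and Fgf14, were lower with fluoxetine. By role, all 4 ligand probe sets and 4 of the 5 probe sets of the homologous factors were lower on average, and 3 of the 4 receptor probe sets were higher.

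**Figure D1:**
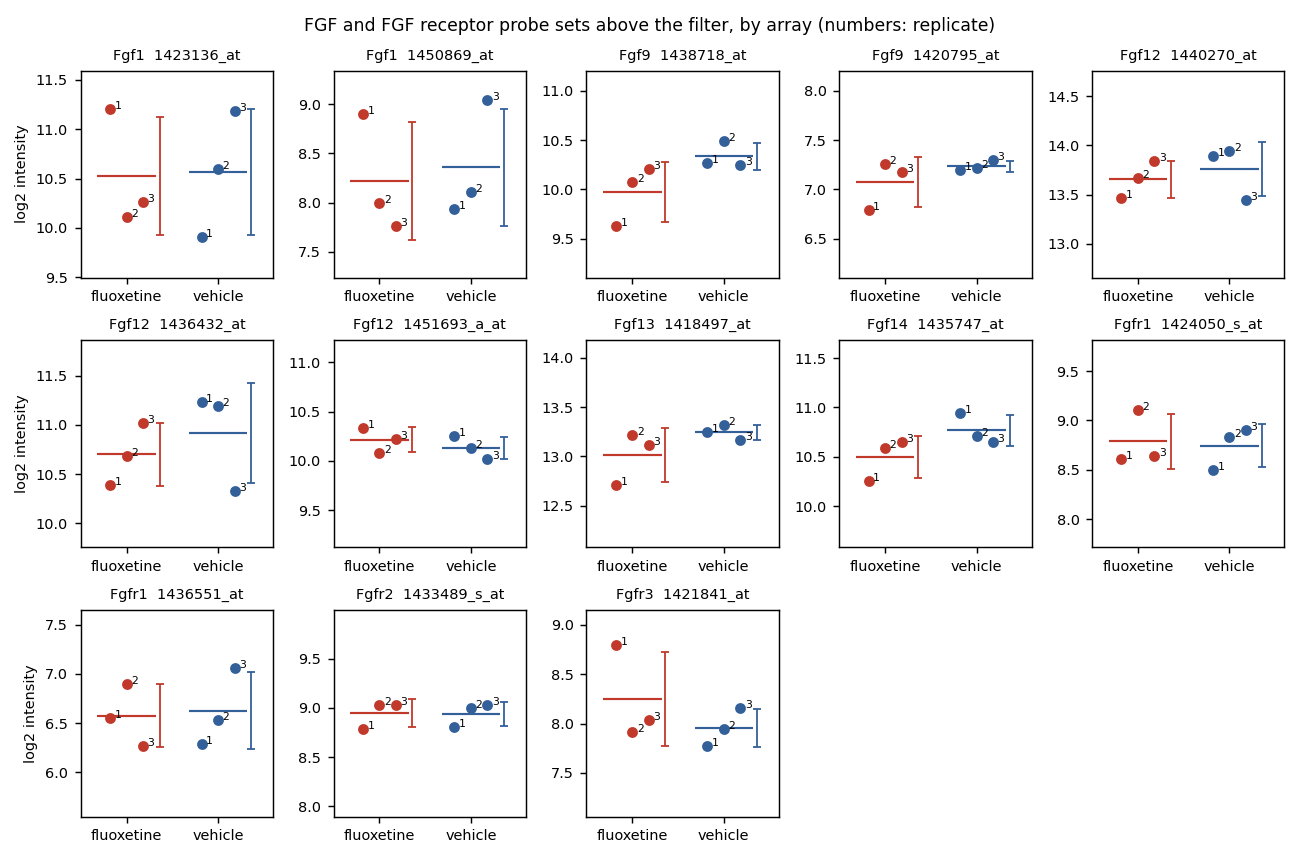
Log2 intensity (vertical axes, all spanning the same range) of the 13 tested probe sets on each fluoxetine and vehicle array. Points are arrays numbered by replicate, horizontal lines are group means and bars beside them are SD (n = 3 each). Fluoxetine 1 is the lowest array for both Fgf9 probe sets, Fgf13, Fgf14 and Fgfr2. It is the highest for Fgfr3, Fgf1 (1423136_at) and Fgf12 (1451693_a_at).

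Among the secreted ligands, Fgf9 had the largest difference. Its probe set 1438718_at read 791, 1083 and 1186 on fluoxetine arrays 1, 2 and 3, and 1233, 1442 and 1218 on vehicle arrays 1, 2 and 3 (normalized intensity, linear scale). All fluoxetine values lay under all vehicle values, but fluoxetine 3 and vehicle 3 were close. In log2 it measured 9.97 ± 0.31 with fluoxetine and 10.34 ± 0.14 with vehicle (SD, n = 3 each). The difference was −0.36 ± 0.18 (SE), a fold of 0.777, with a 95% interval of −0.78 to 0.05 (limma, unadjusted p = 0.075, adjusted p = 0.999). Without fluoxetine 1 it was −0.19.

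The other Fgf9 probe set (1420795_at) read 110, 153 and 144 with fluoxetine and 147, 148 and 158 with vehicle. Only fluoxetine 1 stood below the rest, and the groups overlapped. Its difference was −0.16 ± 0.15 in log2, and −0.02 without fluoxetine 1.

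Fgf1, a ligand able to bind all the FGF receptors, varied more within the groups than any other tested member. Its probe set 1423136_at read 2364, 1102 and 1226 with fluoxetine and 963, 1553 and 2325 with vehicle. A second probe set (1450869_at), designed on the same sequence record, read 476, 255 and 217 with fluoxetine and 244, 277 and 526 with vehicle. On both, fluoxetine 1 and vehicle 3 were the high arrays, 1 in each group, and the 6 arrays spanned 1.30 and 1.28 in log2.

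The group differences of Fgf1 were accordingly poorly determined. They were −0.04 ± 0.39 for 1423136_at (95% interval −0.96 to 0.88) and −0.14 ± 0.38 for 1450869_at (−1.03 to 0.74, log2). The sign for 1423136_at turned after rescaling the arrays and when single arrays were left out, from −0.38 without fluoxetine 1 to 0.27 without vehicle 3. The second ran from −0.48 to 0.19 without the same arrays.

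The neuronal Fgf12 ran the opposite way on those arrays. Its probe set 1440270_at read 11300, 13033 and 14641 with fluoxetine and 15176, 15721 and 11176 with vehicle. Its probe set 1436432_at read 1341, 1649 and 2077 with fluoxetine and 2404, 2335 and 1291 with vehicle. On both, vehicle 3 and fluoxetine 1 were the low arrays, and vehicle 1 and vehicle 2 the high ones.

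The differences of these Fgf12 probe sets were −0.10 ± 0.17 and −0.22 ± 0.28 in log2. Without vehicle 3 they were −0.26 and −0.51, and the remaining groups no longer overlapped, as for 20.4% of all tested probe sets in that setting. Without fluoxetine 1 they were −0.0055 and −0.064. Another Fgf12 probe set (1451693_a_at), of the type that reads several transcript forms of a gene, did not share this pattern. It read 1292, 1084 and 1196 with fluoxetine and 1215, 1121 and 1041 with vehicle, a difference of 0.08 ± 0.12 in log2.

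Some nuclear and non-coding transcripts, taken from a list of their own, were low on the same arrays as Fgf12. No measure of RNA integrity was used here, so the list does not gauge RNA quality by itself. The list median over 6 tested genes deviated from the mean of all 6 arrays by −0.32, 0.15 and −0.05 on the fluoxetine arrays and by 0.27, 0.30 and −0.11 on the vehicle arrays (log2). On fluoxetine 1, 5 of the 6 genes lay below their own mean, but on vehicle 3 only 3 did and the other 3, Neat1, Miat and Rian, lay above it. Malat1 and Meg3 lay furthest below their mean on both arrays, and all these genes were named after their values were seen. Malat1 read 6.85, 8.91 and 9.25 with fluoxetine and 9.85, 8.85 and 6.99 with vehicle, and Meg3 read 7.04, 7.84 and 8.18 with fluoxetine and 8.21, 8.06 and 6.84 with vehicle (log2). The mean levels of the list spanned 7.19 to 7.83 with fluoxetine and 7.29 to 8.03 with vehicle, and 5 of its 6 genes were lower on average with fluoxetine. The part of this list in the Fgf12 and Fgf1 values was not tested. Over all tested probe sets, fluoxetine 1 and vehicle 3 also deviated from their group means together. Their correlation of 0.43 was the highest of any fluoxetine and vehicle pair.

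Fgf13 and Fgf14 had their lowest value on fluoxetine 1 as well. The tested Fgf13 probe set (1418497_at) read 6678, 9543 and 8884 with fluoxetine and 9695, 10217 and 9209 with vehicle. Fluoxetine 2 lay within the vehicle range, so the groups overlapped. The difference was −0.23 ± 0.16 in log2 (95% interval −0.60 to 0.14), and −0.07 without fluoxetine 1.

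The tested Fgf14 probe set (1435747_at) read 1220, 1536 and 1607 with fluoxetine and 1974, 1672 and 1612 with vehicle. The groups did not overlap, although the highest fluoxetine and the lowest vehicle array were almost level. In log2 it measured 10.50 ± 0.21 with fluoxetine and 10.77 ± 0.16 with vehicle (SD, n = 3 each). The difference was −0.27 ± 0.15 (SE), a fold of 0.827, with a 95% interval of −0.63 to 0.08 (limma, unadjusted p = 0.112, adjusted p = 0.999). It was −0.15 without fluoxetine 1, and the groups of Fgf14 overlapped after either rescaling of the arrays, while those of Fgf9 still did not.

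**Figure D2:**
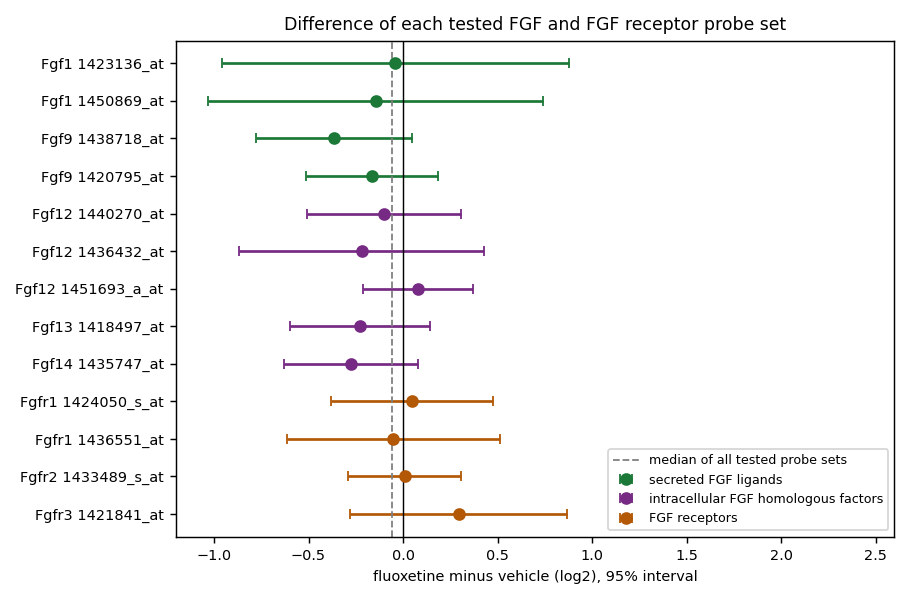
Fluoxetine minus vehicle difference in log2 (horizontal axis) of each tested probe set, with its 95% interval from limma as a bar and colours by role. All 13 intervals include 0, and the dashed line marks the median of all tested probe sets at −0.06.

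Among the receptors, Fgfr3 had the largest difference, and it came from 1 array. Its tested probe set (1421841_at) read 445, 242 and 263 with fluoxetine and 218, 246 and 286 with vehicle. Fluoxetine 1 stood above all other arrays, while fluoxetine 2 and 3 lay within the vehicle range. The difference was 0.29 ± 0.24 in log2, a fold of 1.23 (95% interval −0.28 to 0.87), and 0.02 without fluoxetine 1.

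Astrocyte markers were highest on the same array for 7 of the 13 genes of that list, all of which passed the filter. The share of all tested probe sets that were highest there was not counted. The median deviation of the 13 was 0.15, −0.13 and 0.11 on fluoxetine 1, 2 and 3 and −0.10, −0.01 and −0.03 on vehicle 1, 2 and 3 (log2), and the mean level of the list spanned 10.88 to 11.90 with fluoxetine and 10.98 to 11.11 with vehicle. Gfap, the intermediate filament gene of reactive astrocytes, was picked out after its values were seen. It read 12.13, 4.49 and 9.02 with fluoxetine and 4.70, 5.24 and 5.67 with vehicle in log2. Fluoxetine 1 and 3 were thus far above all other arrays, and fluoxetine 2 was the lowest of the 6. Gfap passed the filter, which used the mean of all 6 arrays, only through fluoxetine 1 and 3. Its values on fluoxetine 2, vehicle 1 and vehicle 2 lay under the filter level, and vehicle 3 was close to it. This normalization compresses such low values. The members of the list differed in size and sign. Gja1, a gap junction gene, differed by −0.15 ± 0.12 and Glul, the glutamine synthetase gene, by −0.02 ± 0.13. Aqp4 and Sox9 were likewise picked out after their values were seen. Aqp4, the water channel of astrocyte endfeet, differed by 0.66 ± 0.52. Sox9, a transcription factor of astrocytes, read 8.89, 8.74 and 8.68 with fluoxetine and 8.17, 8.16 and 8.23 with vehicle in log2. Its groups did not overlap, and the difference was 0.58 ± 0.11 (limma, unadjusted p = 0.0011, adjusted p = 0.999). On fluoxetine 3, where Gfap was also high, Fgfr3 deviated by −0.06. Other marker lists were high on fluoxetine 1 too, with median deviations of 0.50 for meninges and choroid plexus and 0.20 for the oligodendrocyte lineage. Those of projection neurons (−0.13), inhibitory neurons (−0.14), vessel cells (−0.23) and microglia (−0.16) were low there. The part of astrocyte RNA in the Fgfr3 difference was not tested, and in pulled-down RNA more cells of a type and more RNA per cell cannot be told apart.

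The genes whose profile over the 6 arrays lay closest to that of Fgfr3, among 12247 others, were Necab2, Vwa1 and Hepacam. Likeness was the root mean square difference of log2 values, each centred on its own mean, and it was 0.024, 0.035 and 0.039. These genes were selected for this likeness on these arrays, so it is a description only, and no cell type is read from it.

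Fgfr1, the receptor widely expressed by neurons, had differences near 0, though its intervals were wide. Its probe set 1424050_s_at read 391, 552 and 399 with fluoxetine and 360, 455 and 478 with vehicle. A second one (1436551_at) read 94.1, 119 and 77.0 with fluoxetine and 78.2, 92.4 and 133 with vehicle. On both, fluoxetine 2 was the highest fluoxetine array and vehicle 1 the lowest vehicle array. The differences were 0.05 ± 0.18 and −0.05 ± 0.24 in log2, with 95% intervals of −0.38 to 0.47 and −0.62 to 0.51. Closest to the 1424050_s_at probe set of Fgfr1 in profile were Fkbp7, Arid1b and Vmac (0.049, 0.058 and 0.061).

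Fgfr2, a receptor of glial cells in the brain, spanned the smallest range of the tested members. Its tested probe set (1433489_s_at) read 443, 524 and 522 with fluoxetine and 446, 511 and 522 with vehicle. Replicate 1 was the lowest array of each group, and the 6 arrays spanned 0.24 in log2. The difference was 0.01 ± 0.13, with a 95% interval of −0.29 to 0.31. Closest to Fgfr2 in profile were Cyp7b1, Tmem151a and Slc30a7 (0.039, 0.043 and 0.045).

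**Figure D3:**
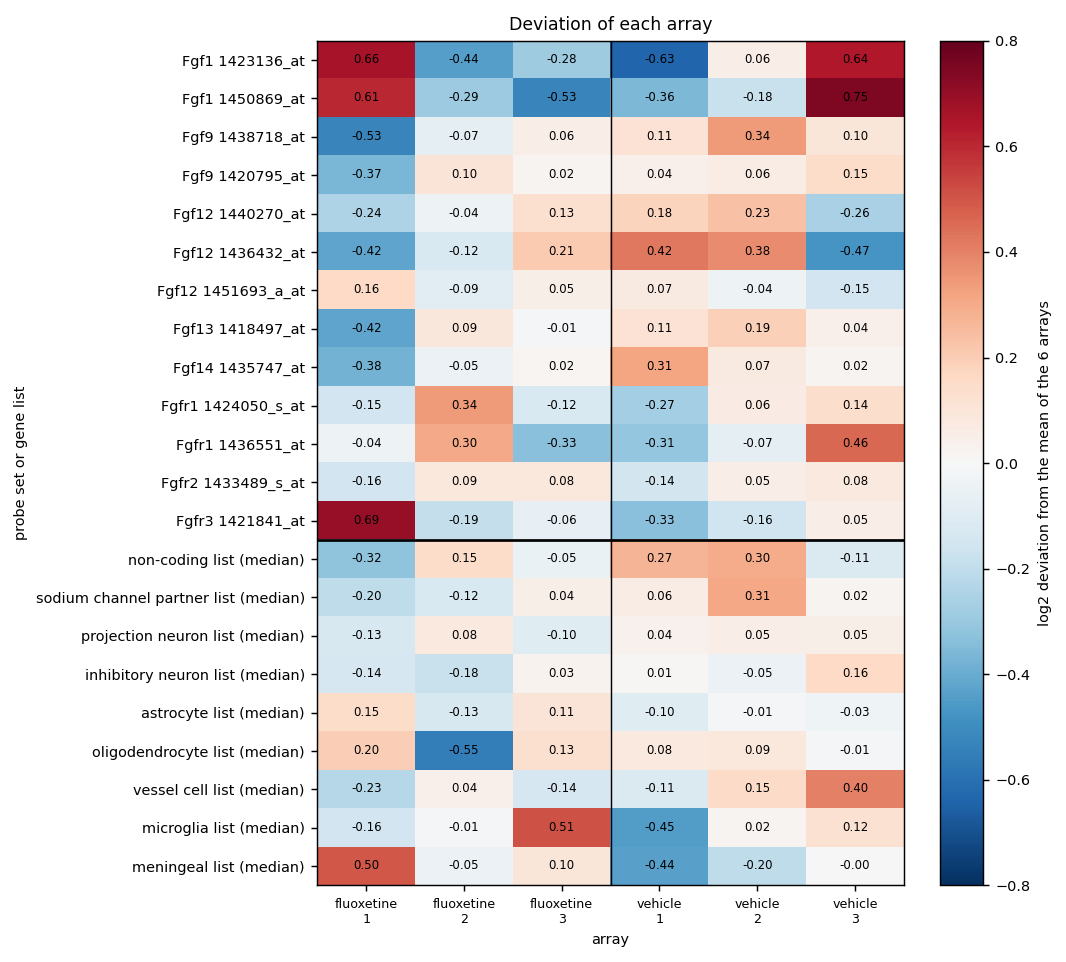
Log2 deviation of each array (columns) from the mean of the 6 arrays, for the 13 tested probe sets (upper lines) and for the medians of gene lists (lower lines). Fgf1 is high and Fgf12 (1440270_at and 1436432_at) low on fluoxetine 1 and vehicle 3, where the non-coding list is at −0.32 and −0.11. Fgfr3 and the astrocyte, oligodendrocyte and meningeal lists are highest on fluoxetine 1, at 0.69, 0.15, 0.20 and 0.50.

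The remaining 11 probe sets lay below the filter, between 4.33 and 44.7 in intensity, where this normalization presses values towards a floor. Fgf2, a ligand made by astrocytes, and Fgf10, a ligand of the epithelial form of Fgfr2, had no other probe set. Fgf2 (1449826_a_at) read 7.68, 7.86 and 10.7 with fluoxetine and 7.42, 7.16 and 7.25 with vehicle. Fgf10 (1420690_at) read 4.68, 4.63 and 4.67 with fluoxetine and 4.53, 4.80 and 4.58 with vehicle. Neither gene was therefore measured well enough for a comparison.

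In 6 of these 11, namely in Fgf1, Fgf2, Fgf14, Fgfr3 and both dim Fgfr2 probe sets, every fluoxetine array lay above every vehicle array. The same held for 36.4% of the 22711 probe sets below the filter, and 72.6% of those were higher on average with fluoxetine, as were 7 of the 11. The 6 differences were small, from 0.06 (Fgfr2, 1443211_at) to 0.25 (Fgf2) in log2.

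The other 4, of Fgf13, Fgfr1 and Fgf14, were lower on average with fluoxetine, with groups that overlapped. The dim Fgf13 probe set (1418498_at) read 18.2, 21.8 and 27.7 with fluoxetine and 29.2, 25.9 and 29.5 with vehicle, lowest on fluoxetine 1 like the tested Fgf13 probe set. The dim Fgfr1 probe set (1425911_a_at) read 18.5, 43.6 and 29.9 with fluoxetine and 44.7, 30.9 and 40.2 with vehicle, and fluoxetine 2 lay within the vehicle range. The Fgf14 probe set 1449958_a_at had a log2 level of 3.32, 3.28 and 3.32 with fluoxetine and 3.84, 3.32 and 4.57 with vehicle, where vehicle 3 stood apart.

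**Figure D4:**
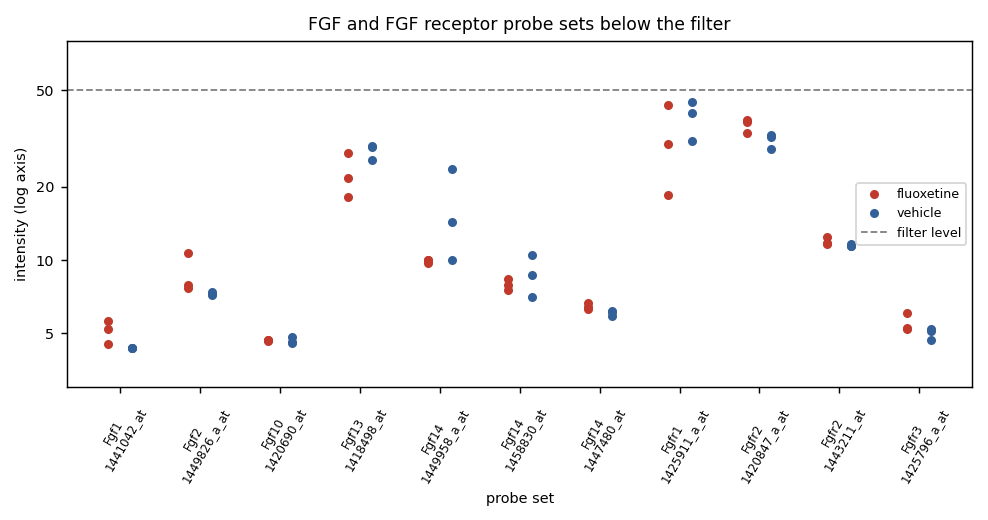
Normalized intensity (vertical log axis) of the 11 probe sets below the filter level of 50 (dashed line), with a point for each fluoxetine and each vehicle array. Fluoxetine points lie above vehicle points in 6 of the 11.

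Other genes of the FGF system were taken from 5 lists, each gene by its brightest tested probe set, and 0 passed limma's adjusted p of 0.05 in either direction. At an unadjusted p under 0.05 the count was 1 of 62 tested genes (1.61%), Scn4b, a share below the 2.52% of all tested probe sets. Of 17 further FGF and receptor genes, 3 passed the filter. Fgf5 differed by −0.24 ± 0.13, Fgf11, a further homologous factor, by −0.20 ± 0.24, and Fgfrl1, a receptor without a kinase domain, by 0.14 ± 0.13 (log2, SE). Fgf11 too was lowest on fluoxetine 1, and differed by 0.03 without it.

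Of 29 co-receptor and heparan sulphate genes, 25 were tested, 15 lower and 10 higher on average, where 66.3% of all tested probe sets were lower. The median was −0.04, and it turned to 0.03 and 0.02 after the 2 rescalings. Sulf1, an enzyme that trims sulphate from heparan chains, read 10.58, 9.19 and 9.67 with fluoxetine and 8.86, 9.30 and 9.21 with vehicle in log2. Fluoxetine 1 was its highest array and fluoxetine 2 lay within the vehicle range, giving a difference of 0.69 ± 0.34, and 0.31 without fluoxetine 1. Sdc1, a cell surface heparan sulphate proteoglycan, differed by 0.71 ± 0.44, and by 0.16 without fluoxetine 1. Hs2st1, a sulphotransferase, differed by −0.19 ± 0.10 and the glypican Gpc3 by 0.21 ± 0.12. These were the 2 of the 25 whose groups did not overlap, against 8.05% of all tested probe sets.

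Of 20 genes of the adaptors and kinase cascade, 14 were tested, 11 lower and 3 higher, where 66.3% of all tested probe sets were lower. The median was −0.10, and −0.03 and −0.04 after the 2 rescalings. Ptpn11, the phosphatase that relays receptor signals to Ras, had a log2 level of 13.65 ± 0.06 on fluoxetine arrays and 13.87 ± 0.02 on vehicle arrays (SD, n = 3 each). Ptpn11 was the 1 gene of the 14 whose groups did not overlap, against 8.05% of all tested probe sets. Its difference was −0.21 ± 0.10 (limma, unadjusted p = 0.076, adjusted p = 0.999). The exchange factor gene Sos2 differed by −0.25 ± 0.16, the phospholipase gene Plcg1 by −0.24 ± 0.18 and the kinase gene Map2k2 by −0.19 ± 0.14.

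Of 13 feedback inhibitors and target genes, which FGF signalling is known to switch on, 11 were tested, 9 lower and 2 higher, where 66.3% of all tested probe sets were lower. The median was −0.11, and −0.05 after either rescaling. Dusp6, a phosphatase of MAP kinases, differed by −0.17 ± 0.13, Spred2 by −0.17 ± 0.13 and Spry2 by −0.13 ± 0.14, the last 2 being inhibitors of the Ras pathway. Ccnd1, the cyclin D1 gene, differed by −0.23 ± 0.26. None of the 11 had groups that did not overlap, against a share of 8.05% among all tested probe sets.

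Of 10 genes listed as partners of the homologous factors, 9 were tested and all 9 were lower on average, where 66.3% of all tested probe sets were lower. The list also holds genes of auxiliary channel subunits, and binding to the factors was not examined. The median was −0.26, beside −0.06 for all tested probe sets, and it was −0.20 after either rescaling. Scn1a, a sodium channel pore gene, read 10.47, 11.47 and 11.37 with fluoxetine and 11.72, 11.88 and 11.41 with vehicle in log2, a difference of −0.57 ± 0.28, and −0.25 without fluoxetine 1. Scn4b, an auxiliary channel subunit, differed by −0.42 ± 0.16 (limma, unadjusted p = 0.035, adjusted p = 0.999), Scn3a by −0.32 ± 0.14 and the scaffold gene Mapk8ip2 by −0.26 ± 0.15. The groups overlapped for all 9, where 8.05% of all tested probe sets had groups that did not. Fluoxetine 1 was the lowest array for 6 of the 9, against 18.5% of all tested probe sets. Without fluoxetine 1 the list median was −0.13, against −0.18 for the feedback and target genes and −0.14 for the adaptors and kinases.

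**Figure D5:**
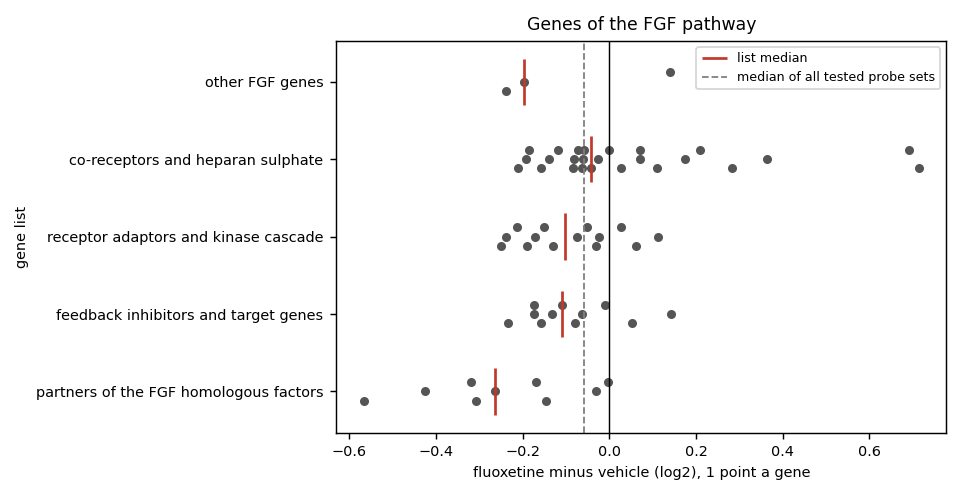
Fluoxetine minus vehicle difference in log2 (horizontal axis) of each tested gene of the 5 pathway lists, with the list median in red and the median of all tested probe sets dashed. No gene passed the test over all probe sets.

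S100a10, the driver gene of the line, had a log2 level of 15.08 ± 0.09 on fluoxetine arrays and 15.15 ± 0.07 on vehicle arrays (SD, n = 3 each). Projection neuron markers, led by S100a10 and Neurod6, passed the filter for 8 of 10 genes (median difference −0.04, and 0.04 and 0.02 after rescaling). Markers of other cells were read too, with medians of −0.12 for inhibitory neurons (8 of 8 genes tested), 0.09 for astrocytes, −0.12 for the oligodendrocyte lineage (8 of 11), −0.24 for vessel cells (8 of 10), 0.18 for microglia (5 of 8) and 0.48 for meninges and choroid plexus (7 of 8). The non-coding list had a median of −0.21 (6 of 8), and 0 genes of these 8 lists passed limma's adjusted p of 0.05. After the 2 rescalings the inhibitory neuron median was −0.04 and −0.05 and that of the oligodendrocyte lineage −0.06 in both. Without fluoxetine 2 the oligodendrocyte median was 0.10 and the inhibitory neuron median −0.01. Without fluoxetine 1 the astrocyte median was 0.01, that of meninges and choroid plexus 0.23 and that of the non-coding list −0.01. Without vehicle 1 the microglia median was 0.01 and the vessel cell median −0.41. At an unadjusted p under 0.05 there were 6 of the 57 tested marker genes (10.5%, against 2.52% of all tested probe sets), 3 of them of meninges and choroid plexus and 1 each of the inhibitory neuron, astrocyte and vessel lists, and 1 of the 6 non-coding genes. Their directions were mixed, and they are named because they lay under that level. Col1a1 (0.75) and Col3a1 (0.58) of the meningeal list and Sox9 (0.58) were higher with fluoxetine. Igf2 of the meningeal list (−0.45), Vip (−0.39), Vtn (−0.41) and the non-coding Miat (−0.31) were lower.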

How the data were processed

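The deposited table holds a normalized linear intensity for every probe set on each array, made with GCRMA per the submitters' processing notes (version not given in the sources used here). The method subtracts a modelled background, is meant to equalize the arrays' distributions and summarises probes, so low values are compressed and no read depth exists. The deposited arrays were not fully level above the filter. Their median over the tested probe sets ran from 8.99 (fluoxetine 2) to 9.20 (vehicle 2) in log2. The linear scale was inferred from the range of the values, 1.74 to 99076. Of 45101 probe sets, 64 array controls were left out. After a log2 transform without an offset, the 22326 probe sets with a geometric mean of at least 50 over the 6 arrays were tested, a form of the submitters' advice that ignores the groups. Fluoxetine minus vehicle was fitted with limma 3.58.1 in R 4.3.3 (lmFit and eBayes, two-sided), without a block, and p-values were adjusted by Benjamini-Hochberg across all of these. The median standard error was 0.154 in log2. The fit was first tested on simulated data.

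The genes and lists were chosen with earlier results of these data known. Named genes followed a rule: every member, up to 4 genes per pathway list by smallest unadjusted p, the 3 genes nearest each receptor in profile and the brightest markers, given where a result touches them. No coordinates are printed because the sources used here name no build. Alternatives were no filter, a higher minimum (100), a replicate block, quantile normalization, adding 16 before the log, shifting arrays to 1 median, trend and robust variances, array weights, a threshold of 0.10, 1 value a gene, and leaving out arrays. Leaving out fluoxetine 1 with vehicle 3 was chosen after seeing the data.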

Additional observations from a re-analysis of the deposited data

How the results depend on the processing

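Under all 18 alternatives 0 of the FGF and receptor probe sets passed limma's adjusted p. The count of all tested probe sets at an unadjusted p under 0.05, 563 here, was 2631 without the filter, 350 with the replicate block and 318 to 1198 with 1 array left out. Over all tested probe sets, same-numbered arrays did not deviate from their group means together (correlations of −0.25, −0.03 and −0.50). Between arrays of different number the correlations ran from −0.27 (fluoxetine 1, vehicle 2) to 0.43 (fluoxetine 1, vehicle 3). With the replicate block the members' median stayed at −0.10. Leaving out 1 array moved that median between −0.18 (vehicle 1) and 0.0245 (vehicle 3), and leaving out fluoxetine 1 and vehicle 2 gave −0.033. Members whose groups did not overlap numbered 2, against 1 after either rescaling, 8 of 24 without the filter (22.8% of all probe sets there), 2 to 5 without 1 array (12.8% to 21.1% of all) and 6 without fluoxetine 1 and vehicle 3 (33.1% of all). Signs turned for Fgf1 (1423136_at) at 0.037 after quantile normalization and 0.020 at a common median, and for Fgfr1 (1436551_at) at 0.0089 there. Ranges over single arrays left out crossed 0 for Fgf1 (−0.38 to 0.27, and −0.48 to 0.19 for 1450869_at), Fgfr1 (−0.11 to 0.13, and −0.22 to 0.16 for 1436551_at), Fgfr2 (−0.062 to 0.088) and Fgf11 (−0.41 to 0.029). Without fluoxetine 1 and vehicle 2, Fgf12 stood at 0.085 and 0.072 (1440270_at, 1436432_at). Without fluoxetine 1 and vehicle 3, Fgf9 (1420795_at) was at 0.011, Fgf12 (1451693_a_at) at −0.036, Fgfr1 (1436551_at) at 0.17 and Fgf11 at 0.18. The causes were not tested. Rescaling moved the median of all tested probe sets from −0.06 to about 0, and with it the share lower on average from 66.3% to 50.2% and 49.2%, against 8 and 7 of the 13 members.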
